A study of Mus musculus with 6 samples.

Results

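The S100 genes, a family that encodes small calcium-binding proteins, were examined in RNA-seq libraries of 4T1 cells, a mouse mammary carcinoma line derived from BALB/c mice. The members, 10 genes, were looked up in the deposited table by gene name: S100a1, S100a3, S100a4, S100a6, S100a8, S100a9, S100a10, S100a11, S100a13 and S100a16. Of these 10, 9 were among the 19255 genes of the table, and S100a9 has no value listed and was not analysed here. A gene was tested when it reached 0.5 FPKM (fragments mapped to a gene, scaled by its transcript length and by the depth of the library) in at least 3 of the 6 libraries, which 8 members and 12190 genes in all did. The libraries were 3 from sgUba6 cells, which are labelled as a UBA6 knockout, and 3 from sgCtrl cells, labelled as non-targeting and wild type. Both groups were 4T1 cells in culture. The study made the sgUba6 cells from Cas9-expressing 4T1 cells with a lentiviral guide RNA and puromycin selection, and whether they were 1 clone or a pool was not given. The treatment note in the labels is the same for all 6 libraries, so the groups were taken from the genotype labels. Whether the 3 libraries of a group came from separate cultures is not given either, and p-values then measure the spread between these libraries, which may be technical.

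S100 proteins carry a pair of calcium-binding EF-hand loops and mostly act as dimers. They have no enzyme activity, and many of them take up calcium, expose a binding surface and attach to a partner protein, among which are annexins, myosin heavy chains and ubiquitin ligase adaptors. Some are also released from cells and bind receptors such as RAGE and TLR4. In mammary carcinoma the family is known for S100A4, which binds non-muscle myosin and is linked to cell motility and metastasis, and for S100A8 and S100A9, which neutrophils make in large amounts.

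Uba6 itself, the gene for an E1 enzyme of ubiquitin and FAT10, was at 10.9, 12.1 and 12.0 FPKM in sgUba6 cells, against 16.4, 16.4 and 17.0 FPKM in sgCtrl cells (log2 difference -0.49, adjusted p = 0.000601 from limma). An mRNA that carries a Cas9-made frameshift can persist, so this checks the labels and not the protein. FPKM summed to 352535 to 355425 in the sgUba6 libraries and to 358916 to 362762 in the sgCtrl libraries, and the number of reads behind them is unknown, so no counting interval is given. The correlation of log2 values across genes was 0.991 to 0.992 between libraries of a group and 0.961 to 0.963 between groups.

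All 9 members in the table lie on chromosome 3 of the GRCm38 build, in a pair of clusters. The first runs over 159 kb from 90511034 to 90670035 and holds S100a1, S100a13, S100a16, S100a3, S100a4, S100a6 and S100a8 in that order, with S100a14, S100a2, S100a5 and S100a7a between them. The second runs over 44 kb from 93520488 to 93564643 and holds S100a11 and S100a10. Of these 9 members only S100a1 is on the minus strand. It stands head to head with S100a13, and 42 bases separate their annotated starts. The annotated main transcripts have 3 exons, of which 2 hold coding sequence, except in S100a13 with 4 exons and 3 coding ones. The coding sequences of the 10 members were 41.8% to 63.3% identical over 45 pairs (median 53.7%), counted over the whole alignment with its gaps. By this measure S100a4 and S100a6 were the closest pair. Over aligned bases alone S100a6 and S100a13 were the closest (82.1%), and S100a4 and S100a6 were at 80.5%.

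The bases upstream of 3 members are printed to show the gene that differed most between the groups (S100a4), its closest relative in coding sequence, which differed least (S100a6), and the most abundant member of the second cluster in sgCtrl cells (S100a11). Each run is the 250 bases before the annotated start on the plus strand, taken from RefSeq on GRCm38.p6, at chr3:90603520-90603769 for S100a4, chr3:90612644-90612893 for S100a6 and chr3:93520246-93520495 for S100a11. Capitals mark a TATA element (TATAAA) or an AP-1 element (TGANTCA), searched on both strands. The run between S100a1 and S100a13, chr3:90514393-90514434 on the plus strand, is the whole sequence between their starts.
S100a4: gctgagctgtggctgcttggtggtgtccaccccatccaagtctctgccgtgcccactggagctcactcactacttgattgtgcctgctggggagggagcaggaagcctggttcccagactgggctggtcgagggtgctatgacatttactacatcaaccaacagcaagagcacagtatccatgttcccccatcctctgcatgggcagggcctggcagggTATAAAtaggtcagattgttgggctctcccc
S100a6: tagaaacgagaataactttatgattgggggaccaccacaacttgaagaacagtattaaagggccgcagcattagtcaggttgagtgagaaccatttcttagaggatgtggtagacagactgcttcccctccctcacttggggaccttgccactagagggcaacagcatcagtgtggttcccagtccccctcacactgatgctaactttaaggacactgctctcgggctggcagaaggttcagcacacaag
S100a11: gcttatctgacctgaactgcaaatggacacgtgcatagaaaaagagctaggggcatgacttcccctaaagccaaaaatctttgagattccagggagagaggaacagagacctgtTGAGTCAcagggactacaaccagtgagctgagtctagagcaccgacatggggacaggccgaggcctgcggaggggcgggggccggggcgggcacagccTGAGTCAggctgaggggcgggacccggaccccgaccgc
S100a1 to S100a13: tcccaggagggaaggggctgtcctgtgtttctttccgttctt

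In the S100a4 window the TATA element began 31 bases before the start. The S100a11 window held 2 AP-1 elements, at 136 and 38 bases before the start, and the S100a6 window held no TATA or AP-1 match. RefSeq windows were given for 9 of the 10 members, and S100a10 was not among them. In the first window listed for each, TATAAA was present in 2 of 9 (S100a4 and S100a8) and in 13% of 27025 windows of all genes. The AP-1 letters were present in 1 of 9 (S100a11), against 6.87% of all windows. The TATA and AP-1 matches do not overlap one another in the runs printed, and a match describes the letters only.

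All 8 members tested were lower in sgUba6 cells than in sgCtrl cells and none was higher. All of them lie on chromosome 3, where 60% of 592 tested genes were lower and 9.12% higher (median log2 difference -0.39). When the libraries were scaled to the genes of chromosome 3, 3 members stayed lower and S100a6 turned higher. S100a1, S100a3, S100a13 and S100a16 did not pass with that scaling. Over all genes tested, 22.7% were lower and 24.7% higher at an adjusted p under 0.05 from limma. At an unadjusted p under 0.05 the counts of members were also 8 lower and 0 higher. The share of all genes at that unadjusted threshold is not given here. The median log2 difference of the members was -0.56, and that of all genes tested was 0.01. For 7 of the 8 members no sgUba6 library reached the lowest sgCtrl library, where 27.7% of all genes tested had every sgUba6 value below every sgCtrl value. The summed level of the members was 1571, 1568 and 1518 FPKM in sgUba6 cells, against 2128, 2268 and 2144 FPKM in sgCtrl cells, or 0.439% and 0.605% of all FPKM. S100a4, S100a6, S100a10 and S100a11 made up nearly all of this sum. In bulk RNA, fewer cells that express a gene and less RNA per cell cannot be told apart.

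**Figure D1:**
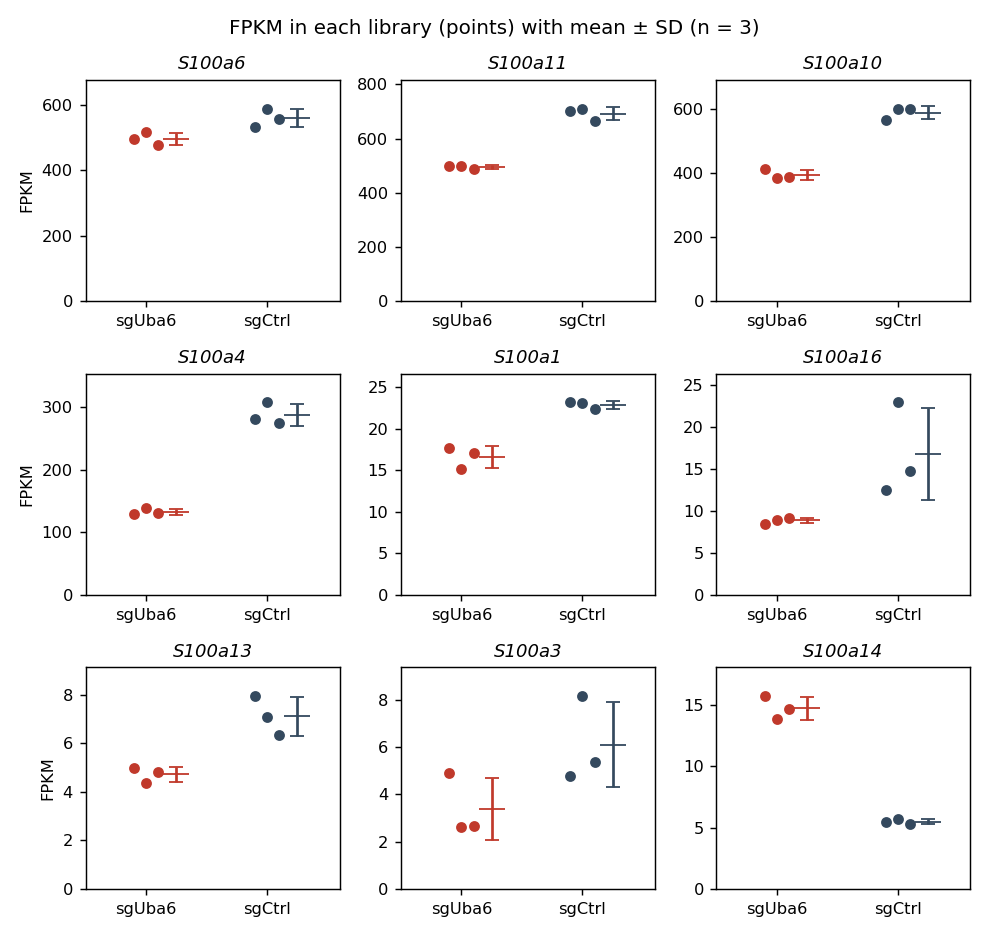
FPKM (vertical axes, each from 0) of the 8 tested members and of S100a14 in 3 sgUba6 libraries and 3 sgCtrl libraries, with points for libraries and bars for the mean ± SD. The sgUba6 points lie below all sgCtrl points for every member drawn except S100a3, and above them for S100a14. S100a6, with the log2 difference nearest to 0 among the members, turned higher with scaling to chromosome 3.

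S100a4, also called metastasin or FSP1, is the myosin-binding member, and it differed most. Its levels were 129.7, 138 and 131 FPKM in sgUba6 cells, against 281, 307 and 275 FPKM in sgCtrl cells. The sgUba6 libraries lay close together and far below the lowest sgCtrl library. The means were 133 ± 4.65 and 288 ± 17.3 FPKM (SD, n = 3 each), which is 2.16-fold lower in sgUba6 cells, with a log2 difference of -1.11 (standard error 0.05, adjusted p = 1.6e-05 from limma). Gm42674, an annotated transcript on the same strand, shares 302 of the 584 exonic bases of S100a4, and reads from the shared bases cannot be told apart. It was listed at 0 to 0.296 FPKM in sgUba6 cells and at 0 to 0.924 FPKM in sgCtrl cells.

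S100a6 encodes calcyclin, which binds the calcyclin-binding protein CACYBP, an adaptor of ubiquitin ligases. It was at 495, 515 and 477 FPKM in sgUba6 cells, against 531, 588 and 557 FPKM in sgCtrl cells. The groups did not overlap, but the highest sgUba6 library came near the lowest sgCtrl library. The log2 difference of -0.17 (standard error 0.05, adjusted p = 0.0235 from limma) was the nearest to 0 among the members. With quantile normalization it was -0.07 (adjusted p = 0.224), and with scaling to the genes of chromosome 3 it was 0.22 (adjusted p = 0.00461). The call was also lost without sgUba6 library 1 (adjusted p = 0.0634), sgUba6 library 3 (0.0799), sgCtrl library 2 (0.0602) or sgCtrl library 3 (0.0508). S100a4 stood at 0.262, 0.269 and 0.275 of the S100a6 level in sgUba6 cells, against 0.530, 0.523 and 0.493 in sgCtrl cells. An exact two-sided permutation test of this ratio gave p = 0.1, the smallest that 3 libraries against 3 can give.

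S100a10, or p11, encodes the member that stays in its open form without calcium and forms a tetramer with annexin A2 at the plasma membrane, where it binds plasminogen and tissue plasminogen activator. Its levels were 412, 385 and 388 FPKM in sgUba6 cells, against 565, 602 and 599.9 FPKM in sgCtrl cells. No library of one group came near the other group. The means were 395 ± 15.1 and 589 ± 20.9 FPKM (SD, n = 3 each), with a log2 difference of -0.58 (standard error 0.04, adjusted p = 8.1e-05 from limma).

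Anxa2, the annexin A2 gene on chromosome 9, was at 608, 587 and 586 FPKM in sgUba6 cells, against 562, 570 and 551 FPKM in sgCtrl cells. It did not pass the test (log2 difference 0.08, 95% interval 0.01 to 0.16, adjusted p = 0.0690 from limma) and passed with quantile normalization (0.17, adjusted p = 0.00459). The ratio of S100a10 to Anxa2 was 0.678, 0.656 and 0.662 in sgUba6 cells, against 1.00, 1.06 and 1.09 in sgCtrl cells (exact two-sided permutation p = 0.1). Both genes were thus at about the same FPKM in sgCtrl cells, and S100a10 was the lower one in sgUba6 cells. The log2 difference of the ratio was -0.66. S100a10 lies on chromosome 3, whose tested genes had a median log2 difference of -0.39, and Anxa2 does not. The part of this chromosome-wide difference in the ratio was not tested.

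S100a11 encodes a partner of annexin A1 and other annexins and is also known for roles in membrane repair and keratinocyte growth control. It was at 498, 499 and 489 FPKM in sgUba6 cells, against 703, 711 and 664 FPKM in sgCtrl cells. The sgUba6 libraries spread by an SD of 5.80 FPKM and the sgCtrl libraries by 24.7 FPKM, and the groups stood well apart. The log2 difference was -0.48 (standard error 0.04, adjusted p = 8e-05 from limma). A stretch of 297 bases of the S100a11 transcript is at least 98.7% identical to each of the pseudogenes Gm12854 and Gm7665, whose means were 0.437 and 1.18 FPKM in sgUba6 cells, against 0.620 and 1.48 FPKM in sgCtrl cells.

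Anxa1, the gene of annexin A1 on chromosome 19, was higher in sgUba6 cells (log2 difference 0.20, adjusted p = 0.0108 from limma). The ratio of S100a11 to Anxa1 was 0.604, 0.572 and 0.574 in sgUba6 cells, against 0.959, 1.00 and 0.848 in sgCtrl cells (exact two-sided permutation p = 0.1). Of these genes only S100a11 lies on chromosome 3, and the part of the chromosome-wide difference in this ratio was not tested. S100a10 and S100a11, which neighbour each other in the second cluster, kept a ratio of 0.772 to 0.828 in sgUba6 cells and of 0.804 to 0.903 in sgCtrl cells (exact p = 0.2). In all, 7 such ratios were computed, and none could reach an adjusted p under 0.05 at this group size.

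S100a1, best known from heart and skeletal muscle, where its protein binds the ryanodine receptor, was at 17.7, 15.1 and 17.1 FPKM in sgUba6 cells, against 23.1, 23.1 and 22.3 FPKM in sgCtrl cells (log2 difference -0.45, standard error 0.07, adjusted p = 0.00149 from limma). S100a13, whose human protein takes part in the release of FGF1 and interleukin 1 alpha, was at 4.98, 4.38 and 4.83 FPKM in sgUba6 cells, against 7.94, 7.07 and 6.34 FPKM in sgCtrl cells (log2 difference -0.54, standard error 0.10, adjusted p = 0.00355 from limma). For both genes of this head-to-head pair every sgUba6 library was below every sgCtrl library. The ratio of S100a1 to S100a13 was 3.45 to 3.55 in sgUba6 cells and 2.91 to 3.52 in sgCtrl cells (exact two-sided permutation p = 0.2). Of the cargo of S100a13, Fgf1 was listed at 0.139 FPKM or less in every library and was not tested, and Il1a was higher in sgUba6 cells (log2 difference 0.21, adjusted p = 0.00649 from limma).

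S100a16, one of the more widely expressed members, was at 8.52, 8.95 and 9.20 FPKM in sgUba6 cells, against 12.5, 23.0 and 14.8 FPKM in sgCtrl cells. The sgUba6 libraries agreed closely, and sgCtrl library 2 was well above the other sgCtrl libraries. The log2 difference was -0.83 (standard error 0.20, adjusted p = 0.0130 from limma). It was -0.59 to -1.01 and passed with other constants and filters, with median-of-ratios scaling or quantile normalization and with any 1 library left out, but did not pass with scaling to chromosome 3 (-0.44, adjusted p = 0.0796).

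S100a3, known from the cuticle of hair, was at 4.91, 2.64 and 2.65 FPKM in sgUba6 cells, against 4.79, 8.15 and 5.38 FPKM in sgCtrl cells. It was the only tested member whose groups overlapped, since sgUba6 library 1 was above sgCtrl library 1. The log2 difference was -0.78 (standard error 0.27, adjusted p = 0.0487 from limma), and the call was lost without sgUba6 library 2 (adjusted p = 0.136), sgUba6 library 3 (0.135), sgCtrl library 2 (0.128) or sgCtrl library 3 (0.0808). Gm42674 shares 144 exonic bases with S100a3 on the same strand, the small RNA gene Gm23464 shares 117 on the other strand, and S100a2 lies within the bounds of S100a3.

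S100a8, which with S100a9 forms calprotectin, was listed at 0 FPKM in all 3 sgUba6 libraries and in sgCtrl libraries 1 and 2, and at 0.0789 FPKM in sgCtrl library 3. It was not tested and no fold is given. Of 18 neutrophil and myeloid markers written down, 9 were in the table and 5 were tested, and all 5 were higher in sgUba6 cells, with summed levels of 33.6 to 37.9 FPKM in sgUba6 cells and 20.7 to 22.2 FPKM in sgCtrl cells. Those 5 were Ltf (log2 difference 1.66), Csf1r (1.10), Cd68 (1.02), Itgb2 (0.43) and Cd14 (0.32). In sgCtrl cells Ltf was at 0 to 0.02 FPKM and Csf1r at 0.395 to 0.457 FPKM. Both passed the filter only through their sgUba6 libraries, so the filter largely set their direction. The defining markers Ly6g, Elane, Ptprc and Lyz2 were at 0 to 0.0944 FPKM in every library.

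The members kept different orders in the groups. In sgUba6 cells S100a6 and S100a11 were on top with overlapping libraries, followed by S100a10, S100a4, S100a1 and S100a16, each apart from the next, and by S100a13 and S100a3, which overlapped. In sgCtrl cells S100a11 stood alone on top, S100a10 and S100a6 overlapped, S100a4 followed, S100a1 and S100a16 overlapped, and S100a13 and S100a3 overlapped. S100a6 made up 31.4% to 32.8% of the members' summed FPKM in sgUba6 cells and 24.9% to 26.0% in sgCtrl cells. S100a4 made up 8.25% to 8.83% in sgUba6 cells and 12.8% to 13.6% in sgCtrl cells. The share of S100a11 was 31.7% to 32.2% in sgUba6 cells and 31.0% to 33.0% in sgCtrl cells, with overlap. The members thus did not fall in equal proportion, with S100a4 taking a smaller share and S100a6 a larger one.

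Beside the members, 8 other names of the family were written down, of which 4 were in the table and 3 were tested. Of these 3, S100a14 and S100pbp were higher and S100a7a did not pass. S100pbp is no S100 gene but encodes a binding protein of one. S100a14, an epithelial member that lies between S100a13 and S100a16 at 90526856 to 90528837 on the plus strand, was at 15.7, 13.9 and 14.7 FPKM in sgUba6 cells, against 5.43, 5.74 and 5.31 FPKM in sgCtrl cells. That is 2.69-fold higher in sgUba6 cells (log2 difference 1.35, standard error 0.07, adjusted p = 1.91e-05 from limma). The ratio of S100a14 to its neighbour S100a16 was 1.85, 1.55 and 1.59 in sgUba6 cells, against 0.432, 0.25 and 0.360 in sgCtrl cells (exact two-sided permutation p = 0.1), so the gene that was lower of the pair in sgCtrl cells was the higher one in sgUba6 cells.

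S100a7a, related to the skin protein psoriasin, was at 0.924, 1.17 and 0.664 FPKM in sgUba6 cells, against 1.05, 1.42 and 1.42 FPKM in sgCtrl cells (log2 difference -0.35, adjusted p = 0.122 from limma), with overlapping groups. S100a5 was listed above 0 only in sgUba6 library 3, at 0.203 FPKM, and S100a2, which was read as the gene within S100a3, was at 0.152 FPKM or less in every library. S100pbp, which encodes a binding protein of S100P and lies on chromosome 4, was higher in sgUba6 cells at 23.5, 23.3 and 20.5 FPKM, against 17.9, 17.8 and 17.1 FPKM in sgCtrl cells (log2 difference 0.34, adjusted p = 0.00434 from limma).

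Genes along chromosome 3, on which every member lies, were mostly lower in sgUba6 cells, a pattern that was noticed after the values were seen. The median log2 difference of its 592 tested genes was -0.39, and 355 of them were lower and 54 higher. The medians of the other 19 chromosomes ran from -0.24 on chromosome 14 to 0.18 on chromosome 12. Off chromosome 3, 20.8% of 11598 genes were lower and 25.5% higher. The libraries of a group agreed in this: the median deviation of chromosome 3 genes from their mean over the 6 libraries was -0.20, -0.19 and -0.19 in sgUba6 cells, against 0.21, 0.21 and 0.19 in sgCtrl cells. It was not limited to the surroundings of the S100 genes. The 176 other genes within 5 Mb of a member had a median of -0.33, and the 406 farther away a median of -0.42. Other chromosomes also leaned to one side. On chromosome 14, 46.3% of tested genes were lower and 9.85% higher, and on chromosome 12, 10% were lower and 41.3% higher.

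**Figure D2:**
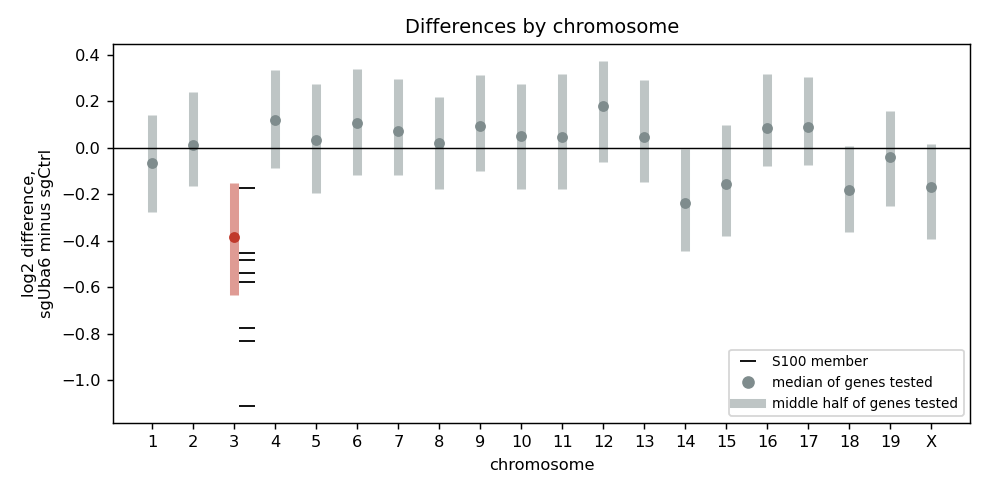
Median log2 difference of the tested genes of each chromosome (points, sgUba6 minus sgCtrl, vertical axis) with bars between the quartiles, and the 8 S100 members as short lines beside chromosome 3. Chromosome 3 has a median of -0.39 and the others lie between -0.24 and 0.18, while the members run from -1.11 (S100a4) to -0.17 (S100a6, which turns to 0.22 with scaling to chromosome 3).

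Set against the 582 chromosome 3 genes that are no S100 gene, the members were spread out. Only 3.61% of these genes had a lower difference than S100a4, 11.9% than S100a16 and 14.6% than S100a3. The shares were 29.6% for S100a10, 31.8% for S100a13, 39.9% for S100a11 and 43.1% for S100a1, which places these 4 members near the middle of the ranked genes. S100a6 was among the less lowered genes, with 73.5% of the others below it, and S100a14 was near the upper end with 99.1% below it.

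When the libraries were scaled so that chromosome 3 genes had equal medians, 3 members remained lower, 1 was higher and 4 did not pass. With this scaling 4.86% of all genes tested were lower and 68.4% higher, since the median of all genes moved to 0.40. S100a4 then had a log2 difference of -0.72 (standard error 0.05, adjusted p = 2.43e-05 from limma), S100a10 of -0.18 (adjusted p = 0.00865) and S100a11 of -0.09 (adjusted p = 0.0413). S100a6 was higher by 0.22 (adjusted p = 0.00461). S100a16 (-0.44, adjusted p = 0.0796), S100a3 (-0.38, 0.223), S100a13 (-0.15, 0.192) and S100a1 (-0.06, 0.448) did not pass, and S100a14 was higher by 1.74 (adjusted p = 4.25e-06). The part of the chromosome-wide difference in the members' differences was not tested beyond these values.

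**Figure D3:**
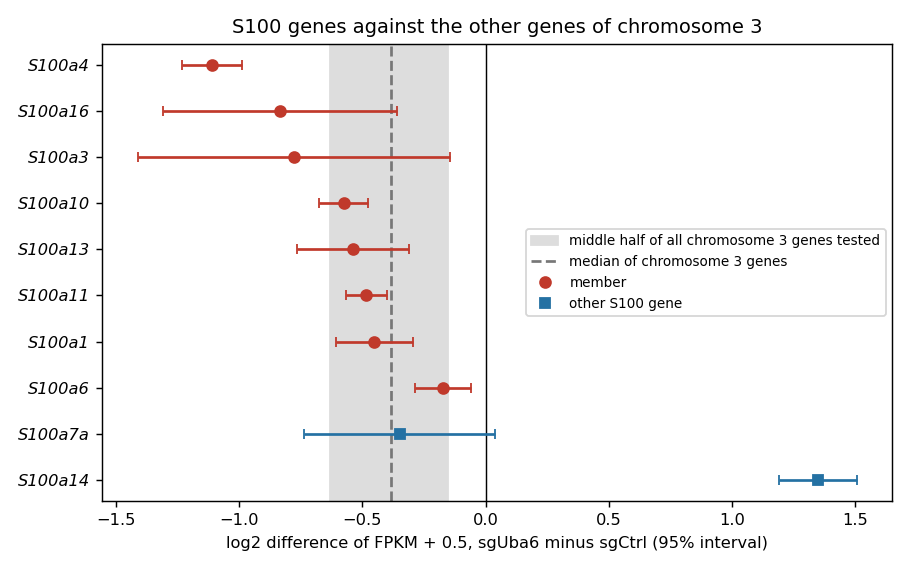
Log2 difference of FPKM + 0.5 (horizontal axis, sgUba6 minus sgCtrl) with its 95% interval for 8 members and 2 other S100 genes, with the chromosome 3 median as a dashed line and the range between its quartiles in grey. S100a4 at -1.11 lies wholly below the grey range, S100a14 at 1.35 wholly above it, and S100a6 at -0.17 above the median, the side on which scaling to chromosome 3 turns it higher.

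Of the genes that are no S100 gene and lie within 200 kb of a member, 6 were tested, all beside the first cluster. Of these, 4 were lower, 1 was higher and 1 did not pass, with a median of -0.45. The lower ones were Slc27a3, an acyl-CoA synthetase gene (log2 difference -0.96), Ints3, for an Integrator subunit (-0.59), Ilf2, for an RNA-binding protein (-0.58), and Chtop, for a chromatin target of the arginine methyltransferase PRMT1 (-0.33). Npr1, the receptor gene of atrial natriuretic peptide, was at 0.73, 0.60 and 0.76 FPKM in sgUba6 cells, against 0.03, 0.05 and 0.02 FPKM in sgCtrl cells (log2 difference 1.17, adjusted p = 0.000305 from limma). Npr1 passed the filter only through its sgUba6 libraries, so the filter largely set its direction. The neighbours within 200 kb were named for their position after the values were seen.

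**Figure D4:**
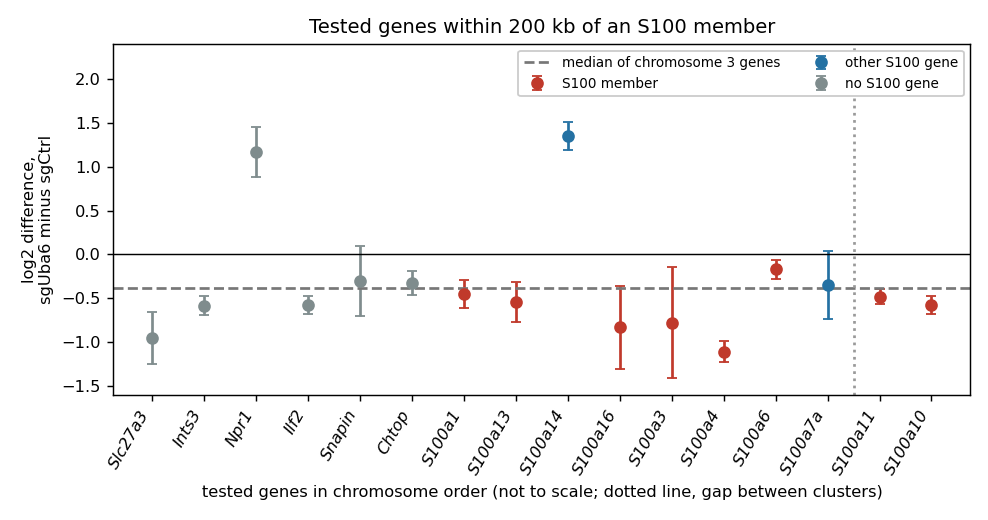
Log2 difference (vertical axis, sgUba6 minus sgCtrl) with its 95% interval for the tested genes within 200 kb of a member, in chromosome order and not to scale, with the chromosome 3 median as a dashed line. Npr1 at 1.17 and S100a14 at 1.35 stand above 0 among genes that are lower or not called, and S100a6 at -0.17 is the member nearest to 0 and turns higher with scaling to chromosome 3.

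The partner proteins of the family are encoded on many chromosomes, and each list of their genes held both higher and lower genes. Of 10 annexin genes tested, 5 were higher, 2 lower and 3 did not pass (median log2 difference 0.17). Anxa8 was at 14.7, 15.4 and 14.1 FPKM in sgUba6 cells, against 44.9, 41.7 and 44.0 FPKM in sgCtrl cells (log2 difference -1.53), the largest difference in the list. Anxa5, a phosphatidylserine-binding annexin whose gene is on chromosome 3, was lower (-0.49). Anxa6 (0.50), Anxa4 (0.32) and Anxa3 (0.30) were higher.

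Of 11 tested genes for other intracellular partners, 4 were higher, 4 lower and 3 did not pass (median -0.02, and 0.07 with quantile normalization). Myh9 and Myh10, which encode heavy chains of non-muscle myosin, targets of S100A4, were higher by 0.39 and 0.35. Iqgap1, for a scaffold protein of the actin cytoskeleton, was higher by 0.38. Hltf, a helicase gene on chromosome 3, was lower (-0.78). Cacybp, the partner of S100a6 on chromosome 1, was at 50.1, 51.6 and 50.8 FPKM in sgUba6 cells, against 64.3, 68.0 and 65.9 FPKM in sgCtrl cells (-0.37), and the ratio of S100a6 to Cacybp was 9.41 to 9.98 in sgUba6 cells and 8.26 to 8.65 in sgCtrl cells (exact two-sided permutation p = 0.1). Ahnak, a large scaffold bound by S100A10 and annexin A2, did not pass (-0.02, 95% interval -0.11 to 0.06).

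Receptors of released S100 proteins and the plasminogen system had 8 tested genes, of which 6 were higher, 1 lower and 1 did not pass (median 0.29). Tlr4 was at 9.05, 9.60 and 10.3 FPKM in sgUba6 cells, against 7.90, 7.14 and 7.74 FPKM in sgCtrl cells (0.33). The RAGE gene Ager was at 0.0812 FPKM or less in every library. The adhesion receptor genes Mcam (0.86) and Alcam (0.81) and the urokinase gene Plau (0.43) were higher, and Plat, which encodes the tissue plasminogen activator that S100A10 binds, was lower (-0.25).

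Of 16 tested genes for other EF-hand calcium sensors, 3 were higher, 6 lower and 7 did not pass (median -0.10), and with quantile normalization 5 were higher and 2 lower. Efhd2, for an actin-binding EF-hand protein, was higher by 0.49 and Chp1, for a cofactor of sodium-proton exchangers, by 0.35. The calpain genes Capn2 (-0.21) and Capn1 (-0.17) were lower. Calu did not pass, with 97.2 and 84.9 FPKM in sgCtrl libraries 1 and 2, 245 FPKM in sgCtrl library 3 and 239.9 to 245 FPKM in sgUba6 cells.

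**Figure D5:**
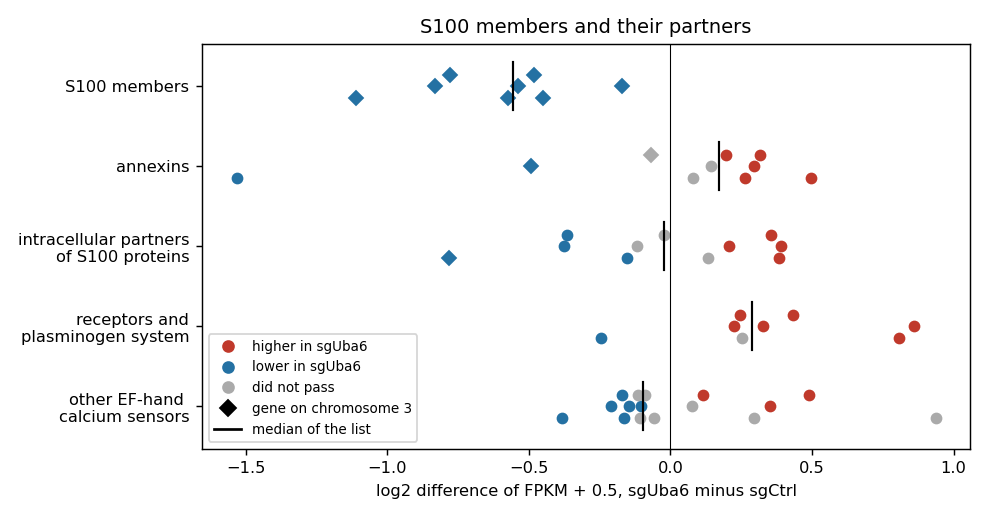
Log2 difference (horizontal axis, sgUba6 minus sgCtrl) of each tested gene of the members and of 4 lists of partner and related genes, with a black line for the median of each list and diamonds for genes on chromosome 3. The members, at a median of -0.56, lie below 0 before scaling to chromosome 3 (S100a6 turns higher with it), whereas the annexin median is 0.17 and that of receptors and the plasminogen system 0.29.

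Markers of the labelled cell type and of other cells were also read. Of 10 tested epithelial markers, 3 were higher (Epcam 0.90, Cldn4 0.75 and Cldn7 0.63) and 2 lower (Krt14 -0.29 and Krt8 -0.22), with summed levels of 2772 to 2836 FPKM in sgUba6 cells and 2734 to 2794 FPKM in sgCtrl cells. Of 5 tested fibroblast and mesenchymal markers, 4 were higher (Fn1 1.37, Vim 0.86, Pdgfra 0.85 and Col1a1 0.83) and Postn on chromosome 3 was lower (-3.36), with summed levels of 1206 to 1301 FPKM in sgUba6 cells and 662 to 723 FPKM in sgCtrl cells. Col1a1 was at 0.726 to 0.936 FPKM in sgUba6 cells and 0.179 to 0.342 FPKM in sgCtrl cells. It passed the filter only through its sgUba6 libraries. Col1a2, Dcn and Acta2 were at 0 to 0.411 FPKM in every library and were not tested. S100a4 is itself used as a fibroblast marker, and it was lower, as Postn was, where the other 4 tested markers were higher. Lymphocyte and endothelial markers summed to 0.178 FPKM or less in sgUba6 cells and 0.252 FPKM or less in sgCtrl cells. Their part in the S100 differences was not tested.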

How the data were processed

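RNA of 4T1 cells was sequenced in 3 sgUba6 and 3 sgCtrl libraries. The authors deposited a table of FPKM, a level per transcript length and library depth. The study's methods name a directional library kit, HISAT2 on GRCm38, StringTie and Cuffdiff, and the submitters' notes name a TruSeq kit, CASAVA 1.8, Trimmomatic, HISAT2 and RSEM on mm10. Which of them made the table, and whether strand was used, could not be settled. Columns of the authors' own comparison (fold change, p-value and q-value) were not used.

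A gene was kept if 3 or more libraries reached 0.5 FPKM (12190 of 19255). The comparison used the moderated test of limma 3.58.1 with an intensity trend (R 4.3.3) on log2(FPKM + 0.5), a scale that understates changes of low genes, with Benjamini-Hochberg adjustment over all genes kept and a threshold of 0.05. Every log2 difference is sgUba6 minus sgCtrl on this scale. Ratios were tested with an exact two-sided permutation test (scipy 1.17.1). The fit was tested on simulated data. Coordinates and exons came from GENCODE on GRCm38, promoter windows from RefSeq, and shared sequence from blastn 2.17.0. Figures were drawn with matplotlib 3.10.9.

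Members and lists were chosen with earlier results of these data known. The text names all members, the other S100 genes in the table, genes that overlap a member or lie between members and passed, and up to 5 called genes of at least 1 FPKM with the largest difference per list, of which 1 is not reported here. Anxa2, Anxa1, Ahnak, Myh10, Il1a, Fgf1, Calu and the neighbours within 200 kb were named beyond this rule, for their role or position, after their values were seen. Other settings were tried 1 at a time: each of the 6 libraries left out, the replicate number as a block, no trend, quantile normalization, scaling by median of ratios, a filter of 1 FPKM or none, and a constant of 1 or 0.1. Scaling to the genes of chromosome 3 was added after seeing the data.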

Additional observations from a re-analysis of the deposited data

How the results depend on the processing

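S100a1, S100a4, S100a10, S100a11, S100a13, S100a16, S100a14 and S100pbp kept their direction and their call under all 14 other settings listed under the methods. S100a6 and S100a3 each lost the call in 7 of them, both with no filter (adjusted p = 0.0504 for S100a6 and 0.0748 for S100a3 from limma) and with no trend (0.0574 and 0.0621). S100a7a passed with quantile normalization (-0.54, adjusted p = 0.0363). The count of members lower, 8, was 6 to 8 over these settings and also 6 to 8 when each library was left out in turn. The counts over all genes were 2330 to 2932 lower and 2526 to 3128 higher over the 14 settings. The ratio of the members' summed FPKM, sgUba6 over sgCtrl, was 0.712, and 0.704 to 0.727 without 1 library. Scaling to the genes of chromosome 3, chosen after seeing the data, moved this ratio to 0.935, left 3 members lower and 1 higher, turned S100a6 to 0.22 and S100a7a to 0.0445, and gave 593 lower and 8336 higher genes. By its construction it raises all other chromosomes.

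With the replicate number as a block, 7 members were lower, S100a3 being lost (adjusted p = 0.0942 from limma), and 2552 genes were lower and 2718 higher. Same-numbered libraries did not deviate together (correlations 0.0156, -0.0567 and -0.0223), so the numbers were not taken to pair the libraries.

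Depth is unknown, so the precision at low FPKM (S100a3, S100a13, S100a8) rests on the spread of 3 libraries alone.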
